A study of Mus musculus with 2 samples.

Results

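IL-1 family cytokines were examined in dendritic cells grown from bone marrow of CBA/J and of C57BL/6 mice, both inbred strains. The group comprised the ligand genes Il1a, Il1b, Il1f6, Il1f9, Il18 and Il33 and the inhibitor genes Il1rn and Il18bp. Il1f6 and Il1f9 are older symbols for the genes of IL-36α and IL-36γ. The 8 members were taken by gene symbol from the 21922 genes of an Affymetrix Mouse Gene 1.0 ST array, and each had 1 probe set there. Marrow of normal, untreated mice of each strain was cultured with supernatant of a J558L transfectant, a B cell hybridoma that secretes GM-CSF, and harvested on day 7. Cells of individual mice were then plated without any stimulus, and replicate wells were combined for RNA after 4 h, so all values are of unstimulated dendritic cells. The number, sex and age of the mice and the substrain of C57BL/6 are not given in the sources used here. GM-CSF supports macrophages and granulocytes as well as dendritic cells, so such cultures are mixed. With 1 array per strain, 2 in all, the values below carry no replicate error and no p-value, every difference is a description of these arrays, and strain cannot be told apart from animal, culture or array.

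The IL-1 family is a set of cytokines that signal through paired receptor chains to MyD88 and NF-κB. IL-1α, IL-1β and the IL-36 proteins promote inflammation, IL-18 promotes interferon-γ production, and IL-33 acts as an alarm signal released from damaged cells. IL-1β and IL-18 are made as inactive precursors that caspase-1 cuts, so a transcript level says nothing of the active cytokine. Il1rn encodes the IL-1 receptor antagonist, which occupies the IL-1 receptor without signalling, and Il18bp encodes a secreted protein that binds IL-18. In myeloid cells, Il1a and Il1b are among the genes that microbial products induce most readily.

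Promoter windows were available for 7 of the 8 members in RefSeq, build GRCm38.p6, which is the genome of C57BL/6J. Each window ran from 250 bases before a transcript start to 50 bases after it. Those of 3 ligand genes with signal on both arrays are shown 5′ to 3′ on the strand of the gene, to set their sequence elements side by side. Capitals mark letters that match a searched motif on either strand. The windows are chr2:24186226-24186525 (+) for Il1f9, chr2:129309923-129310222 (-) for Il1a and chr2:129371090-129371389 (-) for Il1b.
Il1f9: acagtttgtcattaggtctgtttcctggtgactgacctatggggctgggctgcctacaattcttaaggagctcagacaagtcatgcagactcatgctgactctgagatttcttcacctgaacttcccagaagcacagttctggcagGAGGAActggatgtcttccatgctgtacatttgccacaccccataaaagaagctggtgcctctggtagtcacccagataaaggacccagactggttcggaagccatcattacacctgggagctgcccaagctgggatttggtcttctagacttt
Il1a: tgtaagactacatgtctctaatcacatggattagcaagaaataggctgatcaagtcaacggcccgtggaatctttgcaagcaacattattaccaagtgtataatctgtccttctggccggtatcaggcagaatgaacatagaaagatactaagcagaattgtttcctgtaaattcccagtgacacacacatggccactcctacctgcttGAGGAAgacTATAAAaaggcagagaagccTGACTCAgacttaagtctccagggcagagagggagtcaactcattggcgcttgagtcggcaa
Il1b: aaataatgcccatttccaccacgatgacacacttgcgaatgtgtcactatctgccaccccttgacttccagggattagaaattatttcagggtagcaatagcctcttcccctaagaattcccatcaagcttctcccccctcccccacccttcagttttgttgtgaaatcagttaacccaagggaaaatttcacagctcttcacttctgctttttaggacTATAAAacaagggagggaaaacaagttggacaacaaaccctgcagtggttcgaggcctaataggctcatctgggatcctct

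The motifs searched were TATAAA, the TATA box, GAGGAA, a core of PU.1 sites, TGANTCA, an AP-1-like element, TTGCNNAA, a C/EBP-like element, and a pair of κB-like motifs that overlap each other. Both strands were searched. The Il1a and Il1b windows each held a TATA box just before the start, at bases -32 to -27 in Il1a and -31 to -26 in Il1b. A window of Il33, not shown, held TATAAA at -29 to -24 as well. At any position on either strand, the motif was found in 13.6% of all 32851 windows. Il1a also held GAGGAA at -41 to -36 and TGACTCA at -12 to -6, motifs present in 28.3% and 7.81% of windows. Il1f9 held a single match, GAGGAA at -104 to -99. Among the windows not shown, the first of 3 for Il1rn held TGAGTCA and a match to the first κB-like motif, which 5.56% of windows hold, and the other pair of windows, which overlap, shared a single site that matched both κB-like motifs. The window of Il18bp held a C/EBP-like match, found in 10.8% of windows. These are letter matches only, and the sequence of CBA/J was not used here.

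Of the 8 members, 5 gave a signal that reached the level rule, under which a gene's brighter array had to be at or above that array's median over genes, 6.16 for CBA/J and 6.21 for C57BL/6. These were Il1a, Il1b, Il1f9, Il1rn and Il18bp. All 5 had lower signal in CBA/J, by small amounts, with Il1f9 furthest apart. None was past 2-fold, against 2.14% of the 11442 genes that reached the level rule. At a 1.5-fold threshold 1 member, Il1f9, was higher in C57BL/6, against 2.47% of genes in that direction and 6.93% in either direction. The median difference of the 5, on the log2 scale as CBA/J minus C57BL/6, was -0.23, against 0.08 over all genes that reached the rule. Of those genes 38.0% had lower signal in CBA/J. Of the 5 members, 4 lie on chromosome 2 and Il18bp lies on chromosome 7.

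Among the ligands, Il1b (probe set 10487597), which encodes the caspase-1 substrate IL-1β, measured 8.74 on the log2 scale in CBA/J and 8.91 in C57BL/6. Both values were above the 95th percentile of the array's negative control probe sets, 8.28 for CBA/J and 8.17 for C57BL/6. The difference was -0.17, or 1.13-fold higher in C57BL/6, and 53.5% of genes that reached the level rule differed by at least as much. Il1a (probe set 10487588), which encodes IL-1α, a ligand of the same receptor that is active without caspase-1, had 8.03 in CBA/J and 8.31 in C57BL/6. Its difference was -0.28, 1.21-fold higher in C57BL/6, with the CBA/J value under the negative control percentile and the C57BL/6 value above it. A difference of that size or more was seen in 31.2% of genes. The differences of Il1a and Il1b were 0.11 apart (-0.11, Il1a minus Il1b), so the ratio of these neighbouring genes to each other differed by 1.08-fold between the strains.

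Il1f9 (probe set 10469786) encodes IL-36γ, which is known from skin and other barrier tissues and acts on dendritic cells through the IL-36 receptor. On the log2 scale Il1f9 measured 8.51 in CBA/J and 9.22 in C57BL/6, both above the 95th percentile of the negative controls. The difference of -0.71 made it 1.63-fold higher in C57BL/6. Of the genes that reached the level rule, 516 (4.51%) differed by at least as much. Among probe sets within 0.5 log2 units of its mean signal, 3.18% of 2041 genes, 1.84% of 326 positive controls and 12.1% of 132 negative controls differed by as much in either direction. This window of signal was chosen after values were seen. The file marks these probe sets only as negative controls; on arrays of this kind they are known to lie in introns of widely expressed genes, so they are not free of transcript signal.

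**Figure D1:**
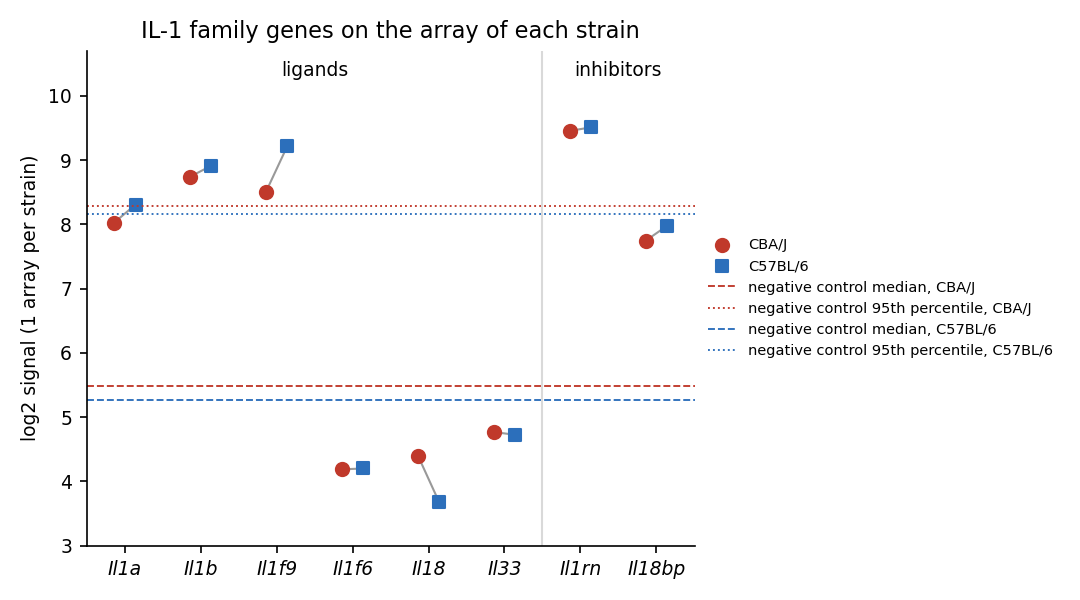
Log2 signal of the 8 IL-1 family genes, with CBA/J as circles and C57BL/6 as squares, 1 array each, and dashed and dotted lines for the median and the 95th percentile of each array's negative control probe sets. Il1f9 is furthest apart among the 5 genes above the medians, with 8.51 in CBA/J and 9.22 in C57BL/6, and Il1f6, Il18 and Il33 lie below the medians on both arrays; probe sets of different genes are not comparable in height.

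The inhibitor genes had smaller differences than Il1f9. Il1rn (probe set 10469816) measured 9.45 in CBA/J and 9.51 in C57BL/6, a difference of -0.06, and 84.1% of genes differed by at least as much. Il18bp (probe set 10566050) had 7.74 in CBA/J and 7.97 in C57BL/6, a difference of -0.23, with both values between the median and the 95th percentile of the negative controls. Both inhibitor genes thus had slightly lower signal in CBA/J, and the difference of Il18bp was larger than that of Il1b (-0.17). Changes of a gene relative to another on the same arrays do not depend on a constant scaling between the arrays. The signal of Il1b relative to Il1rn was lower in CBA/J by a factor of 1.08 and that of Il1a relative to Il1rn by 1.17. That of Il1f9 relative to Il1rn was lower by 1.57, but Il1rn is not its inhibitor gene, since Il1f5 encodes the IL-36 receptor antagonist.

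The other 3 ligand genes lay below the median of the negative controls, 5.49 for CBA/J and 5.27 for C57BL/6, on both arrays, and no fold is given for them. Il18 (probe set 10585194, chromosome 9) had 4.40 in CBA/J and 3.68 in C57BL/6. Il33 (probe set 10462442, chromosome 19) had 4.77 in CBA/J and 4.73 in C57BL/6. Il1f6 (probe set 10469793, chromosome 2), the gene of IL-36α, had 4.19 in CBA/J and 4.20 in C57BL/6. These probe sets thus gave no signal above the negative control medians, and no detection test was run. The difference of Il18, with CBA/J as the brighter array, was between values that were both below those medians. The remaining ligand and antagonist genes of the family were low as well: Il1f8 (IL-36β), Il1f5 (the IL-36 receptor antagonist) and Il1f10 had 3.49, 5.24 and 4.26 in CBA/J and 3.34, 5.33 and 4.28 in C57BL/6, and none of the 3 reached the level rule.

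Among the receptors of the family the largest differences ran in the other direction, with higher signal in CBA/J. Of 10 receptor genes 6 reached the level rule, and 2 of the 6 were past 2-fold with CBA/J higher, against 1.35% of all genes that reached it; at 1.5-fold the count was again 2, against 4.46%. These were the genes of both chains of the IL-18 receptor. Il18r1, the ligand-binding chain, had 7.02 in CBA/J and 5.90 in C57BL/6, a difference of 1.12 or 2.17-fold. Il18rap, the signalling partner chain, had 9.09 in CBA/J and 7.94 in C57BL/6, a difference of 1.15 or 2.22-fold. The C57BL/6 value of each, and the CBA/J value of Il18r1, lay between the median and the 95th percentile of the negative controls. Il18r1 reached the level rule through the CBA/J array alone, since its C57BL/6 value was under that array's median over genes. Among negative controls bright enough for the level rule (1845), 5.47% were past 2-fold in either direction, against 2.14% of genes. The median difference of those controls was 0.22, and at 1.5-fold 371 were higher in CBA/J and 99 in C57BL/6. Shares of all genes given here and below are not matched for signal. The chains differed by nearly the same amount, 0.04 apart (-0.04, Il18r1 minus Il18rap), while Il18bp differed by -0.23. Relative to Il18bp on the same arrays, Il18rap was 2.61-fold and Il18r1 2.54-fold higher in CBA/J. These ratios join differences of opposite direction, and the share of gene pairs with ratios of that size was not computed. Il18 itself was below the negative control medians on both arrays.

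Il1rl2, the specific chain of the IL-36 receptor, had 7.74 in CBA/J and 7.17 in C57BL/6, a difference of 0.57 that did not reach 1.5-fold (1.48-fold). Both Il1rl2 values lay between the median and the 95th percentile of the negative controls. Its direction was opposite to that of its ligand gene Il1f9 (-0.71), and neither gene was past 2-fold. Relative to Il1f9 it was 2.42-fold higher in CBA/J, a ratio that joins these opposite differences. The share of gene pairs with such a ratio was not computed. Il1r2, a decoy receptor that binds IL-1 without signalling, had 10.16 in CBA/J and 10.51 in C57BL/6, a difference of -0.35. Il1rap, the accessory chain shared by the receptors for IL-1, IL-33 and IL-36, had 7.10 in CBA/J and 6.88 in C57BL/6, a difference of 0.22. Sigirr, an inhibitory receptor of the family, had 6.67 in CBA/J and 6.75 in C57BL/6. Il1r1, the signalling receptor of IL-1, had 5.88 in CBA/J and 6.19 in C57BL/6, just under the level rule. Il1rl1, which encodes the IL-33 receptor chain ST2, had 5.29 in CBA/J and 5.07 in C57BL/6 and was below the negative control medians, as were Il1rapl1 and Il1rapl2. The median of the 6 receptors that reached the rule was 0.40. With no filter, which lets Il1r1 in, the median of all 10 was 0.20.

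**Figure D2:**
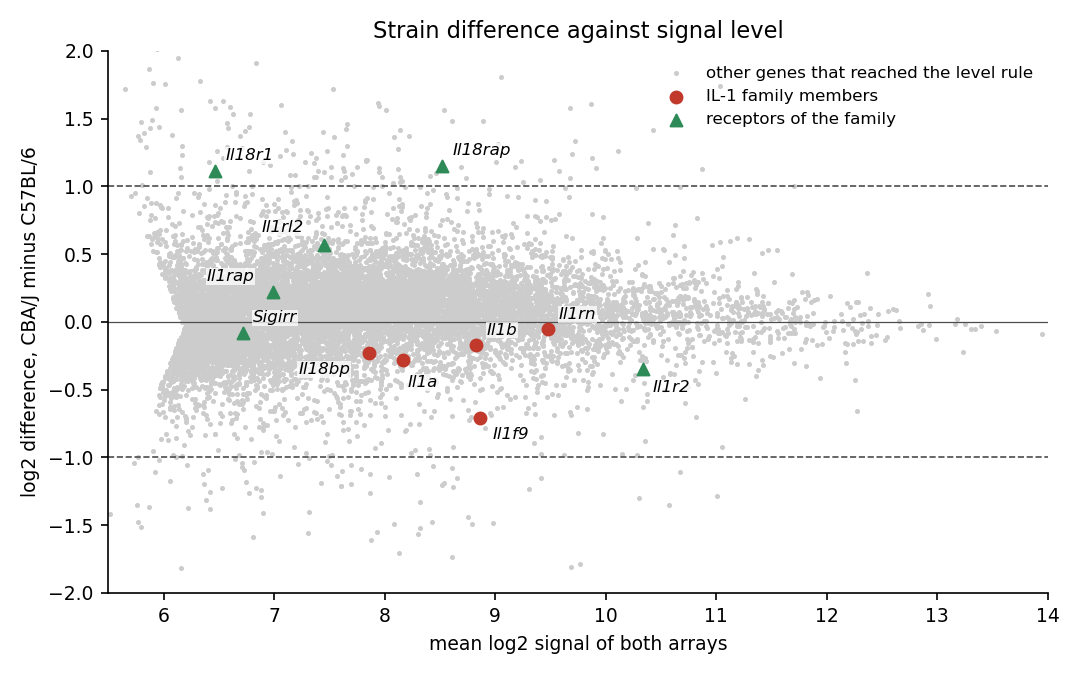
Log2 difference, CBA/J minus C57BL/6, against the mean log2 signal of both arrays for genes that reached the level rule, with 39 of 11442 genes outside the axes and dashed lines at 2-fold. The 5 IL-1 family members (circles) lie below 0, with Il1f9 at -0.71, and Il18r1 and Il18rap (triangles, receptors) lie above the upper line at 1.12 and 1.15.

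Il1f9, Il1f6 and Il1rn lie in one group of family genes on chromosome 2, Il1a and Il1b lie side by side elsewhere on that chromosome, and 6 receptor genes lie in a row on chromosome 1, in the gene order of RefSeq. Within the IL-36 group Il1f9 differed by -0.71, and its direct neighbours Il1f8 (0.15) and Il1f6 (-0.01) were both below the negative control medians. The nearest genes with signal that reached the rule were Hnmt (0.11) on one side of the group and Il1rn (-0.06) and Psd4 (-0.15) toward the other. Next to Il1a and Il1b, Ckap2l differed by 0.01, and the next gene beyond them with signal was Sirpa at 0.60. Along the receptor row the difference changed from -0.35 in Il1r2 and -0.31 in Il1r1 to 0.57 in Il1rl2, 0.21 in Il1rl1, 1.12 in Il18r1 and 1.15 in Il18rap. Il1r1 and Il1rl1 did not reach the level rule, and Il1rl1 was below the negative control medians on both arrays. The flanking genes were Map4k4 at -0.61 before Il1r2 and Slc9a4 at 0.51, below the level rule, after Il18rap. The array was designed on the reference genome, that of C57BL/6J, and whether sequence differences of CBA/J within a probe lowered any of these signals was not tested.

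**Figure D3:**
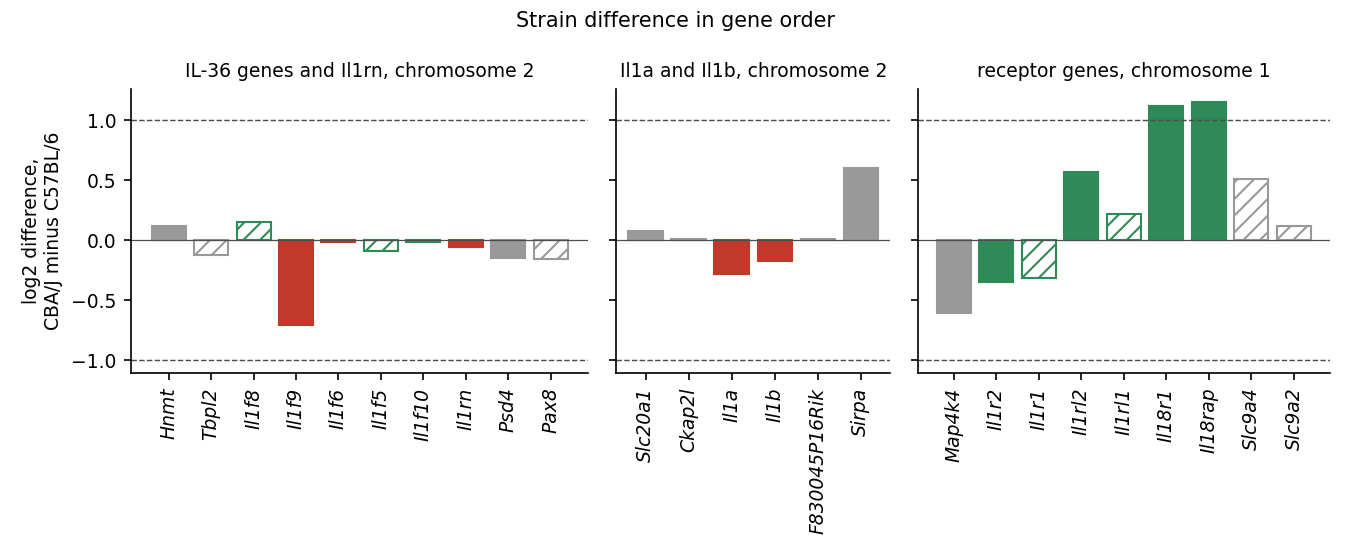
Log2 difference, CBA/J minus C57BL/6, as bars in RefSeq gene order for 3 chromosome segments, with members in red, other family genes in green, flanking genes in grey and hatched outlines for genes below the level rule. Dashed lines mark 2-fold. Il1f9 has the longest bar of its segment at -0.71, and Il18r1 and Il18rap stand together at 1.12 and 1.15 in theirs.

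Genes that process and release the cytokines were mostly close between the strains. Of 20 matched genes 16 reached the level rule, with 12 higher and 4 lower in CBA/J and a median of 0.17; over all genes that reached the rule, 61.3% were higher and 38.0% lower in CBA/J. P2rx7, the ATP-gated channel whose opening triggers IL-1β release, was the 1 gene of the 16 past 2-fold, against 1.35% of all genes in that direction. It had 8.68 in CBA/J and 7.64 in C57BL/6, a difference of 1.04. It was under 2-fold after quantile normalization and after removal of the trend of differences with level. Nlrc4 (0.74) and Naip5 (0.42), which sense bacterial flagellin in 1 inflammasome, came next. Casp1 had 8.18 in CBA/J and 7.93 in C57BL/6, a difference of 0.25, and Nlrp3, the sensor of the best known inflammasome, had 8.52 in CBA/J and 8.24 in C57BL/6. These named genes ran opposite to Il1a and Il1b, whereas Panx1 (-0.20), Casp4 (-0.05), Pycard (-0.03) and Ctss (-0.03) ran the same way.

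Signalling genes downstream of the receptors all reached the level rule, and none of the 20 was past 2-fold. Their median was 0.09, close to that of all genes. The largest differences were in Peli2 (0.77), a Pellino ubiquitin ligase, Irak3 (0.56), an inhibitory kinase-like protein of the pathway, and Ikbkb (0.40), a kinase of the NF-κB inhibitor. Myd88, the adaptor that all signalling receptors of the family use, had 8.79 in CBA/J and 8.71 in C57BL/6.

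Genes that IL-1 is known to induce showed no common direction, with 8 higher and 9 lower in CBA/J among the 17 of 20 that reached the rule and a median of -0.05. Nos2, the inducible nitric oxide synthase gene, was past 2-fold, with 5.92 in CBA/J and 7.14 in C57BL/6, 2.34-fold higher in C57BL/6. It was the 1 target gene of 17 past 2-fold, against 0.795% of all genes in that direction. Both Nos2 values lay between the median and the 95th percentile of the negative controls. Nos2 reached the level rule through the C57BL/6 array alone. Cxcl1 (0.78), a neutrophil-attracting chemokine gene, was higher in CBA/J and the related Cxcl3 (-0.49) was higher in C57BL/6. Il6 lay below the level rule, with 5.47 in CBA/J and 6.02 in C57BL/6.

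Markers of the cell types such cultures can hold differed alongside these values, and their part in the results was not tested. In RNA of whole cultures, fewer cells of a type and less RNA per cell cannot be told apart. The counts below stand against 2.14% of all genes that reached the rule past 2-fold and 61.3% with higher signal in CBA/J. A gene can reach the rule through 1 array alone, so the filter keeps genes with a large difference more readily. Sums of linear signal are given for each whole list and are carried by its brightest probe sets. Dendritic cell markers, among them genes of mature cells, ran the same way as Il1f9. Of 10 markers 9 reached the rule, all lower in CBA/J and 4 past 2-fold, led by Spint1 (-1.48) and Ccr7 (-1.35), and their median was -0.37. The summed linear signal of the 10 was 4930 in CBA/J and 9383 in C57BL/6, with Ccr7 and H2-Ab1 (-1.28) the brightest of those past 2-fold. Whether sequence differences of CBA/J within a probe lowered the signal of H2-Ab1 or of other markers was not tested. Monocyte, macrophage and neutrophil markers ran mostly the same way as Il18r1, Il18rap and P2rx7, with higher signal in CBA/J for 5 of 6, 7 of 8 and 5 of 5 that reached the rule. Of 7 matched monocyte markers 2 were past 2-fold higher in CBA/J, Ccr2 (2.05) and Ms4a6c (at least 1.62), and Ly6c1 (-1.61) was past 2-fold higher in C57BL/6. The median was 0.84, and the sums were 5403 in CBA/J and 3543 in C57BL/6. Of 8 macrophage markers 2 were past 2-fold, Ms4a7 (at least 1.53) and Mrc1 (1.09), with a median of 0.84 and sums of 6303 in CBA/J and 4700 in C57BL/6. Mrc1 was under 2-fold after quantile normalization (0.998) and after trend removal (0.979). Of 9 matched neutrophil markers 5 reached the rule and 4 were past 2-fold, led by Ly6g (at least 2.26) and Ngp (2.18), with a median of 1.40 and sums of 1648 in CBA/J and 599 in C57BL/6. The neutrophil granule genes Mpo (-0.01), Camp (0.09) and Ltf (at least 0.52) did not reach the rule. Neither did Retnlg, which was below the negative control medians on both arrays. With no filter the median of all 9 neutrophil markers was 1.00. Where a marker was below the negative control median on the dimmer array, that median took the place of the dim value and the difference is a lower bound.

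Of 9 mast cell and basophil markers 4 reached the rule, and 2 were past 2-fold with C57BL/6 higher, Cpa3 (-2.12 or beyond, by the same floor) and Hdc (-1.27). Of the other 2, Kit (-0.39) was lower and Gata2 (0.58) higher in CBA/J, and the median was -0.83, with sums of 526 in CBA/J and 743 in C57BL/6. Cpa3 and Hdc reached the rule through the C57BL/6 array alone, with 5.04 and 6.14 in CBA/J. With no filter the median of all 9 was -0.19, with 3 higher and 6 lower in CBA/J. The defining markers Fcer1a, Ms4a2 and Mcpt8 were below the negative control medians on both arrays. Stromal, endothelial and epithelial markers, listed because such cells are known sources of IL-33 and IL-36, had 6 of 10 that reached the rule and none past 2-fold, with Acta2 (0.80) and Pdgfra (0.57) the largest, a median of 0.40 and sums of 1192 in CBA/J and 929 in C57BL/6. The epithelial markers Epcam and Krt14 were below the negative control median in CBA/J and just above it in C57BL/6, and Krt5 was just above it on both arrays, with 5.57 in CBA/J and 5.34 in C57BL/6. Of the markers of the labelled cell type, Itgax, the gene of CD11c, had strong signal on both arrays, with 10.50 in CBA/J and 10.63 in C57BL/6, whereas Flt3 was below the level rule with 5.67 in CBA/J and 5.65 in C57BL/6.

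**Figure D4:**
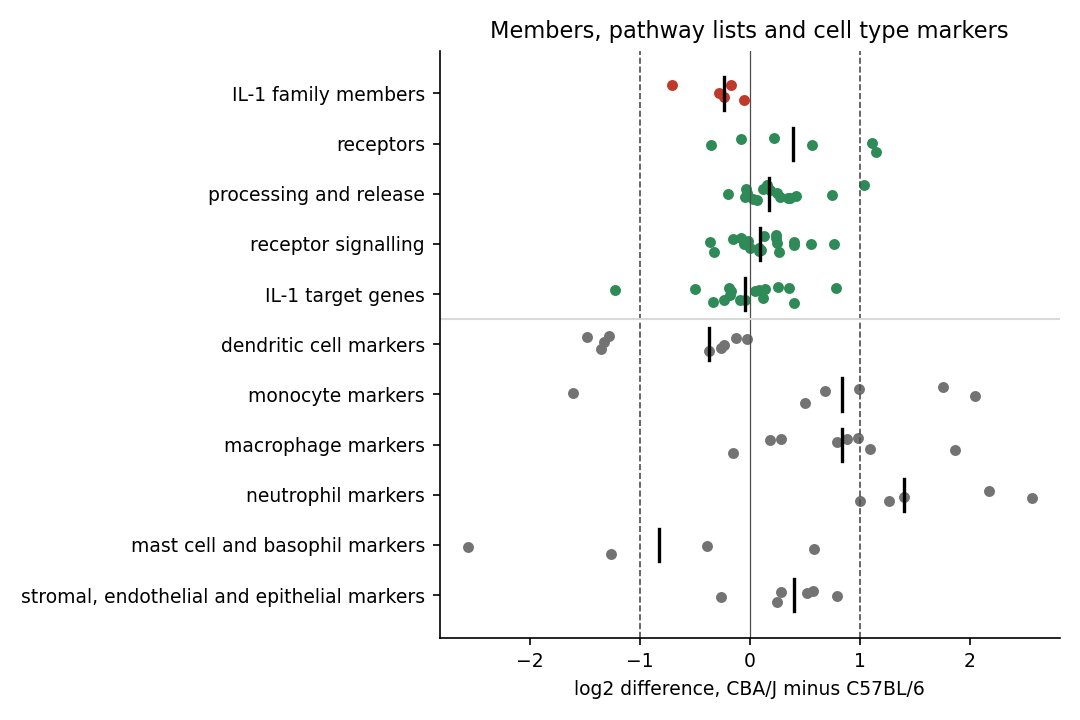
Log2 difference, CBA/J minus C57BL/6, of each gene that reached the level rule, by list, with a black bar at the list median and dashed lines at 2-fold. The 5 IL-1 family members lie between -0.71 and -0.06, the receptors reach 1.15, and all 9 dendritic cell markers lie below 0 while all 5 neutrophil markers lie above it; dim values are drawn as measured, without the floor.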

How the data were processed

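RNA of combined replicate wells of each strain was hybridised to 1 Affymetrix Mouse Gene 1.0 ST array per strain. Per the submitters' processing notes the arrays were processed with Affymetrix Expression Console 1.1; summarization, background correction and normalization are not given in the sources used here. In the deposited table, values are log2 signals, 1 per probe set. Per the file headers, the authors also deposited the log2 difference, CBA/J minus C57BL/6, and 2 to that power, a ratio; both equalled own values within 1.78e-15 and 4.73e-09. The deposited signals of both arrays already had nearly the same distribution.

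Of 35557 probe sets, 24422 carried 1 gene symbol, 112 several and 4477 none, and 5222 negative and 1324 positive controls were kept apart. Date-like symbols (25) were restored. The brightest probe set stood for each of 21922 genes, 11442 of which reached the level rule. Members were matched by the file's symbols; Elane and Ly6c2 of the lists did not match. A difference was called past 2-fold at 1 log2 unit. The calling code was tested on simulated data with known changes, which checks the code and not the error of these arrays. The number of arrays limits the precision. Members and lists were chosen with earlier results of these data known. Named are all members and their receptors, the 3 largest differences of each pathway list, any other gene past 2-fold there, and the 2 largest of each marker list. Other genes (Casp1, Nlrp3, Panx1, Casp4, Pycard, Ctss, Myd88, Il6, Ly6c1, H2-Ab1, Kit, Gata2, Itgax, Flt3, Mpo, Camp, Ltf, Retnlg, mast cell and epithelial markers of low signal, and chromosome neighbours) were named after values were seen. Alternatives covered normalization, source table, probe set choice, background floor, threshold and filter. Promoter windows and gene order came from RefSeq tables (GRCm38.p6). Python 3.11.15, numpy 2.4.6, pandas 2.3.3, statsmodels 0.14.6 (lowess fraction 0.3) and matplotlib 3.10.9 were used.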

Additional observations from a re-analysis of the deposited data

How the results depend on the processing

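No paired analysis was possible because each strain has 1 array. The 5 members that reached the level rule stayed lower in CBA/J after quantile normalization and after trend removal, with Il1f9 between -0.81 and -0.71. The source, probe set and floor settings could not change their values. Both sources held the same values, each member had 1 probe set, and all 5 lay above the negative control medians. Il1f6, below the negative control medians, changed sign (-0.02 to 0.05). The floor gives no value for Il18, Il33 and Il1f6, and the filter on the 95th percentile of negative controls leaves no neutrophil or mast cell marker. At 1.5-fold the counts became 1 for the members, 2 for processing genes, 1 for signalling genes, 2 for targets, 5 for monocyte, 5 for macrophage and 1 for stromal markers, and 793 over all genes. With the 95th percentile filter they became 0 for receptors (median -0.35, from Il1r2 alone), 0 for processing genes, 0 for targets, 2 for dendritic cell markers (median -1.28), 0 for monocyte and 0 for macrophage markers (median 0.18), and 31 over all genes; fewer genes are tested there, and Il18r1 and Il18rap do not enter. Quantile normalization and trend removal each gave 0 processing genes and 1 macrophage marker, and moved the median of all level genes to 0.01. With no filter processing genes counted 2, and the medians were 1.00 for neutrophil and -0.19 for mast cell markers. The other 142 values of counts and medians moved by less than the limits used (1.5 times, or the robust SD of 0.257). Among them are values from settings that could not move them, such as the choice of source.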
